A study of Homo sapiens with 6 samples.

Results

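Among the RNAs that came down with tagged Stau1 in mitotic cells, the transcripts of 4 paraspeckle proteins (NONO, SFPQ, PSPC1 and MATR3) and 2 mRNAs known for inverted Alu repeats in their 3′UTR (NICN1 and PAICS) were followed array by array. They were chosen by gene symbol, with earlier results of these data known, and these 6 targets stand among 37879 on the array. Paraspeckles are nuclear bodies built on the long RNA NEAT1. NONO, SFPQ and PSPC1 are the DBHS proteins, which form dimers on that RNA, and MATR3, a protein of the nuclear matrix, binds RNA together with them. An mRNA with a pair of Alu elements in opposite orientation in its 3′UTR can fold into a long duplex, which ADAR enzymes edit and NONO-containing complexes can hold in the nucleus. Stau1 binds double-stranded RNA too, so such mRNAs can be held or carried by either route. The comparison asks whether these transcripts were more or less abundant in Stau1 immunoprecipitates (IPs) than in control IPs.

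All samples came from HEK293T, a human embryonic kidney cell line, treated with nocodazole at 50 ng/ml for 15 h to stop the cells in prometaphase. That duration is the one in the sample records, and the study's methods give a longer one for these cells. Nocodazole blocks microtubule assembly. The 3 control IPs were made from cells that received the empty vector, and the 3 Stau1 IPs from cells that received plasmids coding for Stau155-FLAG. Per the study's methods, a Rous sarcoma virus promoter drove that transgene in transient transfection, on top of the cells' own Stau1. Every IP used anti-FLAG antibody, and every sample was hybridized on an Illumina HumanWG-6 BeadChip. Nothing in the sources used here says that the replicates came from separate cultures, so p-values measure the spread between these samples, which may be technical. The study also hybridized input RNA, which was not analysed here, and from the IP values alone more RNA bound per transcript cannot be told apart from more of the transcript in the extract.

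The labels of the arrays numbered 2 need caution. Between 11635 and 13054 targets were detected per array (detection p under 0.05). Among 9884 targets that every array detected, Stau1 IP 2 by its label correlated at 0.940 and 0.943 with Stau1 IPs 1 and 3 but at 0.977 with control IP 3. The array labelled control IP 2 correlated at 0.983 and 0.984 with Stau1 IPs 1 and 3 and at 0.977 and 0.982 with control IPs 1 and 3, so it was about as close to either group. Control IP 2 was also the array that the normalization mapped the others on, picked for its highest mean correlation with them. How much that choice adds to its closeness to both groups was not tested. STAU1 itself, the bait, did not settle the labels. Its signal was 2499, 3246 and 2758 on control IPs 1, 2 and 3 and 2845, 1857 and 3130 on Stau1 IPs 1, 2 and 3 (log2 fold change -0.17, limma adjusted p = 0.877), and whether its probes lie within the plasmid's insert was not tested. The deposited labels were kept, these arrays are given singly, and each result is given with and without them. No fit with exchanged labels was made. Among the HEK293T markers, NEFL, NEFM, LIN28B and IGF2BP1 were detected on all 6 arrays and PAX2 on 1. IGF2BP1 was dim, with a signal of 108 to 184 where the negative-control level was 77.6 to 89.6. Of the markers of other cell types, ALB, HBB and PTPRC were detected on 0 arrays and INS, near background, on 4.

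The probes that read the inverted-Alu mRNAs are shown because NICN1 and PAICS carry the widest differences between arrays. Probe sequences were available for these members only, in a supplementary annotation of the study. The study cites it where it assigns functional terms to the mRNAs it scored as Stau1-bound from these IPs. It is thus no separate evidence on NICN1 and PAICS. The annotation names a later content version of the array, so these may not be the exact probes behind the values. The number of beads per target, an average over its probes, was whole on every array for NICN1, which has 1 listed probe. For PAICS it was a whole number divided by 3 (within 0.01 beads), and 3 probes are listed. The first 30 of 50 bases of each probe are printed 5′ to 3′, and capitals mark letters shared with another probe of the same gene.
NICN1 probe 1: cagggaccatgcttcattcgtggctgtgtc
PAICS probe 1: ATTTTGGACTGCCACACATTGGTACCTTTA
PAICS probe 2: taATTTTGGACTGCCACACATTGGTACCTT
PAICS probe 3: ttttccagcacccaacagtagcgtaatggg
PAICS probes 1 and 2 share 48 of 50 bases, so they are nearly the same measurement. The NICN1 gene lies on chromosome 3 from 49422333 to 49429324 and PAICS on chromosome 4 from 56410507 to 56464578 (GRCh38.p14, RefSeq). NONO lies on chromosome X from 71283635 to 71301168, SFPQ on chromosome 1 from 35176380 to 35193145, PSPC1 on chromosome 13 from 19671205 to 19782945 and MATR3 on chromosome 5 from 139274101 to 139331677. The probe annotation gives the NICN1 probe on the minus strand and the PAICS probes on the plus strand. Whether a probe lies within or beside an Alu element was not tested.

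By the labels, none of the 6 transcripts was enriched in or depleted from Stau1 IPs. The methods' rule is a fold over 2.5 with an unadjusted p under 0.05, taken here from limma in place of the methods' t-test. By it 0 members were enriched, against 1 of 37879 targets (0.00264%), and 0 were depleted, against 0 targets. At a limma adjusted p (Benjamini-Hochberg) under 0.05, 0 members passed either, against 1 target, lower in Stau1 IPs (0.00264%). At an unadjusted p under 0.05 NONO and MATR3 passed, as did 8.87% of all targets. The 4 paraspeckle protein mRNAs all had a log2 fold change below 0, as did 47.2% of all targets, and both inverted-Alu mRNAs had one above 0, as did 52.8%.

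NICN1 encodes nicolin 1, a subunit of the tubulin polyglutamylase complex. Its signal was 422, 3734 and 685 on control IPs 1, 2 and 3 and 6244, 521 and 5677 on Stau1 IPs 1, 2 and 3. Control IP 2 lay with the high arrays and Stau1 IP 2 with the low ones, so the groups overlapped. The standard error between beads was 2.15 to 3.41% of the signal, far below these differences. On the normalized log2 scale the control IPs averaged 10.3 ± 1.41 and the Stau1 IPs 11.6 ± 1.78 (SD, n = 3 each). The log2 fold change was 1.31 (SE 1.12, 95% confidence interval -1.50 to 4.12, limma adjusted p = 0.849), which ranked 10 from the top among 37879. An exact two-sided permutation test over the arrays gave p = 0.3, where 0.1 is the smallest value that 3 against 3 arrays allow. Control IP 2 stood 2.40 above the mean of control IPs 1 and 3, and Stau1 IP 2 stood 3.08 below the mean of Stau1 IPs 1 and 3 (differences in log2, -3.08 for the latter). Control IPs 1 and 3 differed by 0.52 and Stau1 IPs 1 and 3 by 0.29.

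PAICS encodes a bifunctional enzyme of de novo purine synthesis. Its signal was 3433, 15595 and 3301 on control IPs 1, 2 and 3 and 19732, 2329 and 22957 on Stau1 IPs 1, 2 and 3. As for NICN1, control IP 2 was the high control array and Stau1 IP 2 the low Stau1 array. For PAICS Stau1 IP 2 was below every control array, whereas for NICN1 it was above control IP 1. The normalized means were 12.6 ± 1.19 in control IPs and 13.5 ± 1.86 in Stau1 IPs (log2, SD, n = 3 each). The log2 fold change was 0.92 (SE 1.09, confidence interval -1.82 to 3.65, limma adjusted p = 0.906), and the exact permutation test gave p = 0.4. Control IP 2 lay 2.06 above the other control IPs on the log2 scale, which differed between themselves by 0.07. For Stau1 IP 2 the difference from the other Stau1 IPs was -3.23, and those differed by 0.05.

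The spread of these mRNAs was among the widest on the array. Between the highest and the lowest array NICN1 ranged over 3.55 and PAICS over 3.25 on the log2 scale, at ranks 5 and 12 among the 9884 targets detected on all arrays, where the median range was 0.61. The paraspeckle protein mRNAs ranged from 0.62 for MATR3 to 1.25 for SFPQ.

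**Figure D1:**
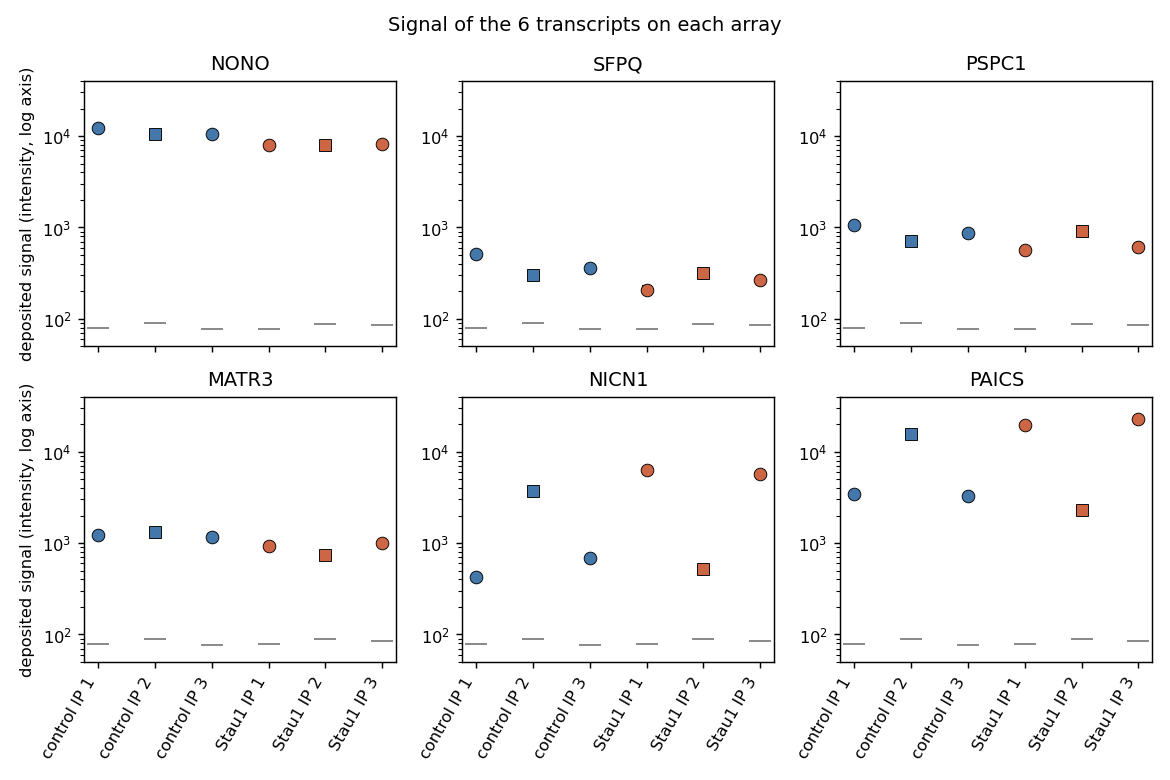
Deposited signal intensity (log axis) of NONO, SFPQ, PSPC1, MATR3, NICN1 and PAICS on the 6 arrays, control IPs in blue and Stau1 IPs in orange, with the arrays numbered 2 as squares. Bars give the standard error between beads, which is smaller than the symbols, and grey dashes the estimated negative-control level of 77.6 to 89.6. NONO and MATR3 kept every Stau1 IP below every control IP, while NICN1 at 3734 and PAICS at 15595 stood high on control IP 2.

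NONO, a DBHS protein that also takes part in splicing and DNA repair, had a signal of 12109, 10464 and 10506 on control IPs 1, 2 and 3. On Stau1 IPs 1, 2 and 3 it was 7955, 7886 and 8155. All Stau1 IPs lay below all control IPs, the arrays numbered 2 included. The log2 fold change was -0.45 (SE 0.08, confidence interval -0.66 to -0.25, a fold of 0.730), with an unadjusted p of 0.00192 and a limma adjusted p of 0.208. The exact permutation test gave p = 0.1, the smallest it allows. The same separation was seen in 7.63% of all targets, and the opposite one, which no member had, in 6.72%.

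MATR3 showed the same order of groups. Its signal was 1214, 1328 and 1167 on control IPs 1, 2 and 3 and 936, 735 and 990.01 on Stau1 IPs 1, 2 and 3. The log2 fold change was -0.48 (SE 0.05, confidence interval -0.60 to -0.36, a fold of 0.717), with an unadjusted p of 0.000117, a limma adjusted p of 0.123 and p = 0.1 in the exact permutation test. The number of beads is an average over at least 4 probes, and the target missed the detection threshold on control IP 3 although its signal there was 1167. Such bright targets without a detection call were not rare, with 142 to 192 targets over a signal of 500 on each array.

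SFPQ, the DBHS partner of NONO in splicing and transcription, had a signal of 507, 299.7 and 361 on control IPs 1, 2 and 3. Stau1 IPs 1, 2 and 3 gave 209, 318 and 265. Stau1 IP 2 lay above control IP 2, and on the normalized scale above control IP 3 as well, so the groups overlapped. The log2 fold change was -0.44 (SE 0.32, confidence interval -1.23 to 0.34, limma adjusted p = 0.810, exact permutation p = 0.3).

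PSPC1, the DBHS protein first described as a paraspeckle component, followed the order of SFPQ. Its signal was 1057, 710.2 and 865 on control IPs 1, 2 and 3 and 560.04, 912 and 612 on Stau1 IPs 1, 2 and 3. Stau1 IP 2 exceeded control IPs 2 and 3. The log2 fold change was -0.36 (SE 0.30, confidence interval -1.10 to 0.39, limma adjusted p = 0.845, exact permutation p = 0.3). Thus NONO and MATR3 separated by label, whereas SFPQ, PSPC1, NICN1 and PAICS on the arrays numbered 2 lay toward the other group.

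**Figure D2:**
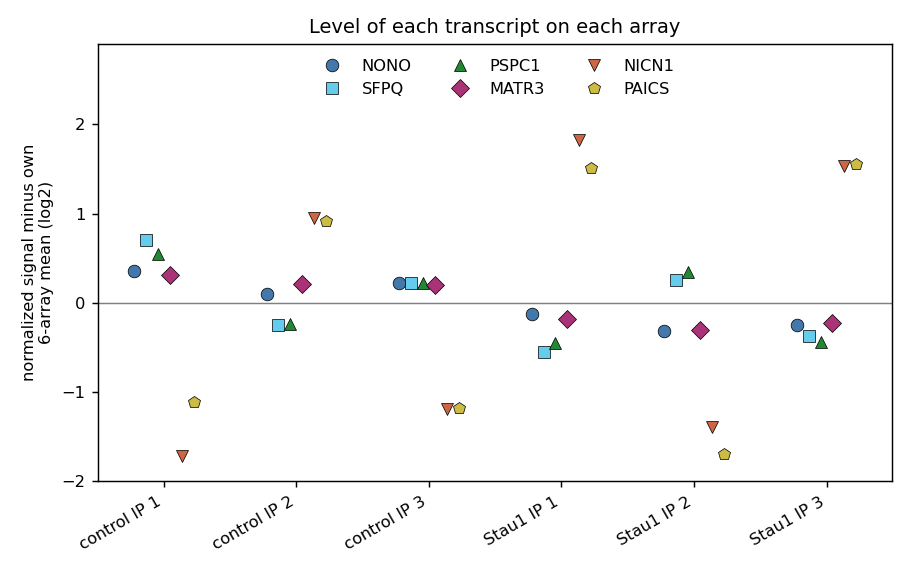
Normalized signal of each transcript on each array, as the difference from its own mean over the 6 arrays (log2), one symbol per transcript. NONO and MATR3 are above their mean on all control IPs and below it on all Stau1 IPs, while NICN1 and PAICS are above theirs on control IP 2 (0.95 and 0.91) and below on Stau1 IP 2 (-1.40 and -1.70).

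Leaving out both arrays numbered 2 changed the calls for 5 of the 6 transcripts. This leaves 2 arrays against 2, and these arrays were singled out with earlier results of these data in view, so the values describe Stau1 IPs 1 and 3 against control IPs 1 and 3. NICN1 then had a log2 fold change of 3.24 (SE 0.22, a fold of 9.45, limma adjusted p = 0.00950). That of PAICS was 2.66 (SE 0.05, a fold of 6.30, limma adjusted p = 0.00190). Both passed the methods' rule, as 0.62% of all targets did in that direction, and they held ranks 5 and 23 by fold change. The members were themselves chosen with earlier results of these data known, so these ranks and shares are no independent test. MATR3 at -0.50 (adjusted p = 0.0228), NONO at -0.50 (adjusted p = 0.0317) and PSPC1 at -0.89 (adjusted p = 0.0320) were lower in Stau1 IPs by limma, and 2.77% of all targets passed adjusted p 0.05 in that direction against 3.55% in the other. SFPQ, at -0.96, did not pass (adjusted p = 0.0764). In this setting the 4 paraspeckle protein mRNAs again lay below 0 (49.7% of all targets) and the inverted-Alu mRNAs above (50.3%), with no overlap of the groups in either case (23.2% of all targets lower and 22.7% higher). All 6 had an unadjusted p under 0.05, as had 17.3% of all targets. No paraspeckle protein mRNA was depleted by the methods' rule, which 18 targets passed (0.0475%). With a normexp background correction of the same 4 arrays NONO and MATR3 no longer passed (adjusted p = 0.102 and 0.0514), and SFPQ was depleted by the methods' rule (-1.42, limma adjusted p = 0.0497). Leaving out Stau1 IP 2 alone gave log2 fold changes of 2.34 for NICN1 and 1.99 for PAICS, both past the methods' rule, with limma adjusted p of 0.303 and 0.296. Leaving out control IP 2 alone gave 2.18 and 1.58, with adjusted p of 0.721 and 0.792. Without either array by itself SFPQ moved past 1.5 times its labelled value, to -0.68 and -0.72 respectively, as did PSPC1, to -0.62 and -0.61.

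**Figure D3:**
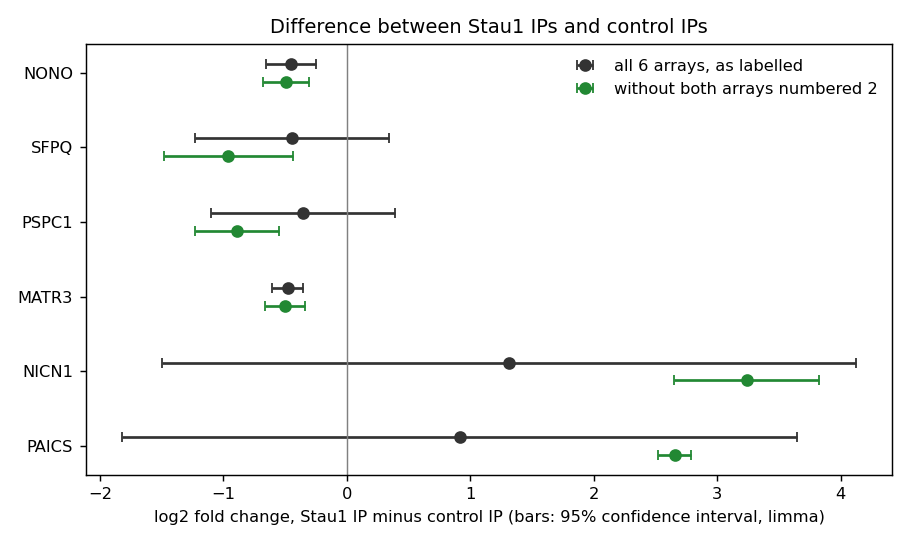
Log2 fold change of Stau1 IPs over control IPs for the 6 transcripts, with 95% confidence intervals from limma, for all 6 arrays as labelled (black, n = 3 per group) and without both arrays numbered 2 (green, n = 2 per group). NONO and MATR3 barely move between both settings (-0.45 to -0.50 and -0.48 to -0.50), while NICN1 goes from 1.31 to 3.24 and PAICS from 0.92 to 2.66.

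Other paraspeckle proteins gave a wider view of the compartment. Of 30 listed proteins beside the members, 29 had a target. By the labels 0 passed either rule, 6 had a log2 fold change above 0 and 23 below (52.8% and 47.2% of all targets), and the median was -0.18, against 0.0037 over all targets. Without the arrays numbered 2 the median was -0.06, with 11 above 0 and 18 below, against 0.00036 over all targets. Without them 2 of the 29 were higher and 1 lower at adjusted p 0.05, where 3.55% and 2.77% of all targets were. HNRNPH1, a splicing regulator that binds G-rich RNA, was higher (1.05, limma adjusted p = 0.00733), and so was NUDT21, the small subunit of the cleavage factor that selects polyadenylation sites (0.62, adjusted p = 0.0300). RBM4B, a splicing factor, was lower (-0.65, adjusted p = 0.0352).

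These transcripts also moved with the arrays numbered 2. HNRNPH1 had a signal of 481, 958 and 531 on control IPs 1, 2 and 3 and 1173, 419 and 1369 on Stau1 IPs 1, 2 and 3, for a labelled log2 fold change of 0.43 (limma adjusted p = 0.839). NUDT21 gave 294, 527 and 274 on control IPs and 548, 131 and 539 on Stau1 IPs 1, 2 and 3, with a labelled log2 fold change of -0.10 (adjusted p = 0.982). RBM4B ran the other way, at 1958, 1782 and 2415 on control IPs and 1477, 2649 and 1633 on Stau1 IPs, with -0.19 by the labels (adjusted p = 0.925). For each of them Stau1 IP 2 lay beyond all control IPs, on the side away from Stau1 IPs 1 and 3.

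**Figure D4:**
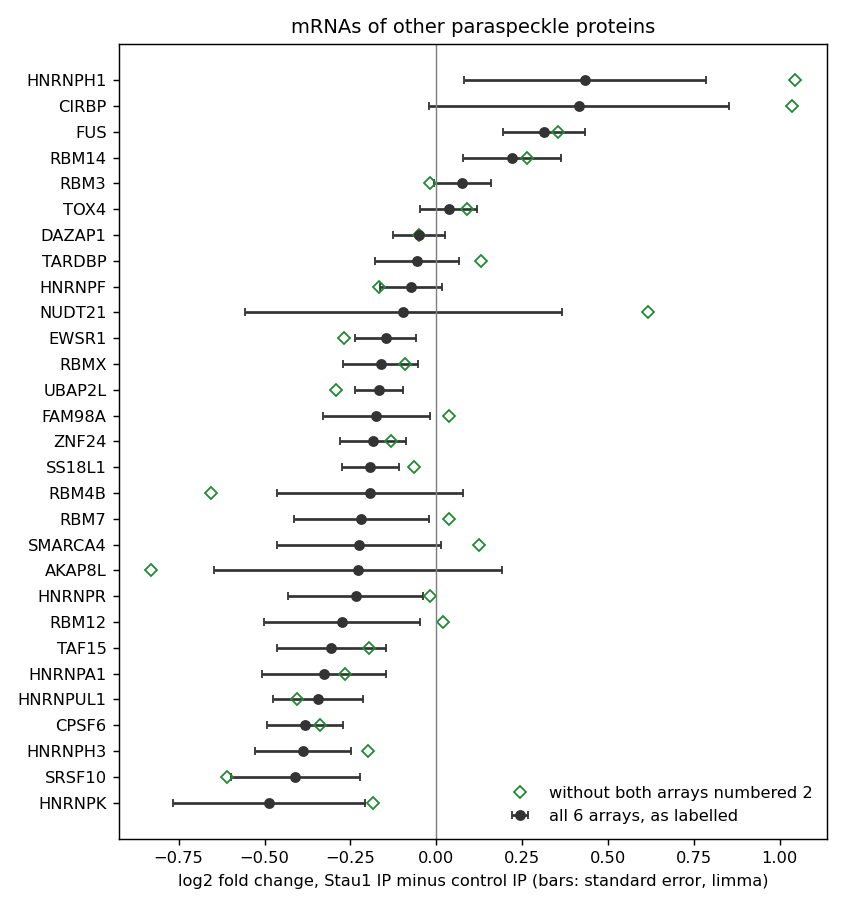
Log2 fold change of Stau1 IPs over control IPs for the mRNAs of 29 other paraspeckle proteins, as labelled (black, bars give the standard error) and without both arrays numbered 2 (green diamonds). By the labels 23 of 29 lie below 0 with none past an adjusted p of 0.05, and HNRNPH1, NUDT21 and RBM4B passed it without those arrays.

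The RNAs of the nuclear bodies themselves could not be followed. NEAT1, the scaffold of paraspeckles, and MALAT1, an RNA of nuclear speckles, were detected on 0 of 6 arrays. The signal of NEAT1 was 85.9 to 107 and that of MALAT1 68.4 to 92.3, where the negative-control level was 77.6 to 89.6.

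Proteins that act on inverted-Alu RNA form the other side of the pathway. Of 11 listed genes 0 passed either rule, by the labels or without the arrays numbered 2. Without those arrays 3.55% of all targets were higher and 2.77% lower at adjusted p 0.05. By the labels 4 of the listed genes lay above 0 and 7 below (52.8% and 47.2% of all targets), with a median log2 fold change of -0.02. STAU2, the paralog of Stau1, had the largest difference (-0.55, SE 0.12, limma adjusted p = 0.282), and its value was -1.18 with the normexp correction. With the negative-control level at 77.6 to 89.6, its signal was 228, 213 and 162 on control IPs 1, 2 and 3 and 128, 124 and 130 on Stau1 IPs, so the groups did not overlap, as in 7.63% of all targets. CARM1, the arginine methyltransferase that modifies NONO, came next at 0.32 (SE 0.13, adjusted p = 0.591), with 9810, 13352 and 10556 on control IPs and 11664, 13849 and 16150 on Stau1 IPs. STAU1 followed at -0.17. ADAR, the main editor of Alu duplexes, was also at -0.17 (SE 0.17, adjusted p = 0.880).

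Among 6 other mRNAs reported with inverted Alu repeats in their 3′UTR, 0 passed by the labels, and LIN28A, CTSS and MDM2 were not detected on any array. The list had 5 above 0 and 1 below (52.8% and 47.2% of all targets) and a median of 0.11. Both the counts and the median include the undetected targets. Without the arrays numbered 2, 1 of the 6 was higher at limma adjusted p under 0.05, where 3.55% of all targets were. That gene is not reported here. PSMB2, a subunit of the proteasome, was named after its values were seen. Its signal was 6131, 7702 and 6962 on control IPs 1, 2 and 3 and 8284, 8948 and 9358 on Stau1 IPs 1, 2 and 3, higher on every Stau1 IP, as in 6.72% of all targets. By the labels its log2 fold change was 0.34 (SE 0.07, limma adjusted p = 0.253), and it was 0.39 (adjusted p = 0.0898) without the arrays numbered 2. The number of Alu elements in these transcripts was not analysed here.

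The other enzymes of purine synthesis were listed beside PAICS. Of PPAT, GART, PFAS, ADSL and ATIC, 0 passed by the labels, 4 lay above 0 and 1 below (52.8% and 47.2% of all targets), and the log2 fold changes ran from -0.27 to 0.22 with a median of 0.02. PFAS, the enzyme of an earlier step of the pathway, was the single gene past adjusted p 0.05 without the arrays numbered 2 (0.86, limma adjusted p = 0.0154), where 3.55% of all targets were higher. Its signal was 955, 1796 and 986 on control IPs 1, 2 and 3 and 1816, 678 and 2306 on Stau1 IPs 1, 2 and 3.

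Transcripts of mitotic regulators were listed as mitosis markers. With no sample free of nocodazole, their signals in the IPs cannot show how far the cells were arrested. CCNB1, the mitotic cyclin, had 2577, 2052 and 2329 on control IPs and 1439, 2380 and 1419 on Stau1 IPs 1, 2 and 3. BUB1, a kinase of the spindle checkpoint, had 1760, 1673 and 1885 on control IPs and 1180, 748 and 1151 on Stau1 IPs. Every Stau1 IP lay below every control IP, as in 7.63% of all targets (BUB1 log2 fold change -0.78, limma adjusted p = 0.201). All 4 mitosis markers (with AURKA and PLK1) had a log2 fold change below 0, as did 47.2% of all targets, and 0 passed by the labels. CCNB1 at -0.93 (limma adjusted p = 0.0144) and BUB1 at -0.82 (adjusted p = 0.0134) were lower without the arrays numbered 2. In that setting 2.77% of all targets were lower at adjusted p 0.05. The part of the mitosis markers in the results for NONO and MATR3 was not tested.

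The transcripts whose profile over the 6 arrays was most like that of a member were sought among 9439 targets with a symbol that were detected on all arrays. The members were left out of that search. Between members the correlations ran from -0.99 (PSPC1 and NICN1) to 0.98 (SFPQ and PSPC1). These Pearson correlations describe 6 arrays that share their labels and normalization, and the arrays fall into a high and a low set for NICN1 and PAICS, so many targets reach high values. For NICN1 the closest were MED22, C1orf69 and CHFR, each at 0.998, and 8.44% of the targets compared exceeded 0.9. CHFR, a checkpoint ubiquitin ligase, had a signal of 823, 4100.1 and 1183 on control IPs 1, 2 and 3 and 6646, 964 and 6811 on Stau1 IPs 1, 2 and 3. MED22 is a subunit of Mediator. For PAICS the closest were GNE, which starts sialic acid synthesis, at 0.9995, and LOC200030 and MGC42630, at 0.998 and 0.997, with 7.91% of targets above 0.9. GNE gave 528, 2522 and 581 on control IPs and 3524, 322 and 3848 on Stau1 IPs. Like the inverted-Alu mRNAs, CHFR and GNE were high on control IP 2 and low on Stau1 IP 2, which follows from their choice by correlation.

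The profiles closest to NONO and SFPQ came from the same search, which left out the members. For NONO they were RAD21, a cohesin subunit, the ribosomal protein mRNA RPS3A and the ribosome biogenesis factor UTP6, at 0.998, 0.995 and 0.994, and 4.73% of targets exceeded 0.9. RAD21 had a signal of 359, 380.1 and 353 on control IPs and 276, 187 and 268 on Stau1 IPs 1, 2 and 3, with no overlap of the groups. For SFPQ they were C14orf11, the chromatin reader ING2 and PLXDC2, at 0.995, 0.995 and 0.991, with 3.78% above 0.9. ING2 had 427, 322 and 344 on control IPs and 226, 309 and 271 on Stau1 IPs, and on the normalized scale Stau1 IP 2 lay above control IP 2, as for SFPQ.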

How the data were processed

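RNA from 3 control IPs and 3 Stau1 IPs was hybridized on Illumina BeadChips. The authors deposited, as BeadStudio wrote them and before normalization, the signal intensity of 37879 targets (25233 with a symbol), with the standard error between beads as an intensity and the number of beads. The deposited detection p-value ranks a target among negative controls. Probes of a target were already combined.

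From these intensities, in R 4.3.3 with limma 3.58.1, mgcv 1.9.3 and the data.table package, version 1.17.8, the steps of the methods were rebuilt, since the software they name was not used here. The negative-control level, taken from 200 targets whose detection p was closest to 0.5 (their median), was subtracted. A variance stabilizing transformation was fitted to the bead SD (500 bins, the lowest 33.3% of signals left out, detection p above 0.01 for the background SD), and robust spline normalization (10 knots) mapped each array on control IP 2. Where arrays were left out, the remaining ones were normalized again, with the reference array picked anew among them. The transformation acts like log2 of the net signal plus 117 to 161, so fold changes of dim targets are understated. lmFit and eBayes compared the groups as labelled over all targets with Benjamini-Hochberg adjustment. On simulated arrays with 200 of 37879 targets changed 4-fold, 56.5% were recovered with 0 false calls and 0 in the wrong direction, and the median log2 fold change came back as 1.39 for higher and -1.52 for lower targets. No simulated array departed from its group as those numbered 2 do, so these rates do not describe the labelled comparison. The number of arrays limits the precision. Control IP 2 and Stau1 IP 2 are given singly as well as in their groups.

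Members and lists were chosen with earlier results of these data known. Named genes were the members, STAU1 and listed genes that pass a threshold by the labels or without the arrays numbered 2. Where no gene of a list passed, the 3 with the largest absolute log2 fold change were named. The 3 targets most like each of NICN1, PAICS, NONO and SFPQ were named as well. ADAR, PSMB2 and the values of mitosis markers were added after they were seen. Older array symbols were matched through RefSeq, and CPSF7 had no match. Figures were drawn with Python 3.11.15, matplotlib 3.10.9 and pandas 2.3.3. Alu elements in 3′UTRs were not analysed here. A listed gene that the rule names is not reported here. Alternatives were neqc, another constant term, quantile and median scaling, no background subtraction, a detection filter, eBayes with trend, the methods' t-test, a replicate block and leaving out arrays.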

Additional observations from a re-analysis of the deposited data

How the results depend on the processing

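The log2 fold changes of the 6 members kept their direction under all 18 alternatives: -0.57 to -0.39 for NONO, -1.42 to -0.14 for SFPQ, -1.05 to -0.17 for PSPC1, -0.59 to -0.44 for MATR3, 0.76 to 3.47 for NICN1 and 0.37 to 2.72 for PAICS. Calls changed only where arrays were left out. Leaving out single arrays or both arrays numbered 2 gave -0.53 to -0.39 for NONO, -0.96 to -0.21 for SFPQ, -0.89 to -0.17 for PSPC1, -0.54 to -0.44 for MATR3, 0.76 to 3.24 for NICN1 and 0.37 to 2.66 for PAICS. Over the same settings 0 to 2 members were enriched, 0 were depleted and 0 to 5 passed adjusted p 0.05. Of all targets 0 to 235 were enriched and 0 to 18 depleted. The extremes came without both arrays numbered 2, where 2392 targets passed adjusted p 0.05 against 1 by the labels. Without Stau1 IP 2 alone 96 targets, 2 members among them, were enriched and 8 depleted. Without control IP 2 it was 10 and 1, and without control IP 3 it was 2 and 3. Why these arrays differ was not tested.

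The enriched count over all targets was 3 with neqc (6 depleted) and 2 with eBayes trend. On this table neqc infers a background SD of 460 to 608 from the detection p-values, where undetected targets show 9.97 to 10.9. A further alternative, chosen after seeing the data, therefore ran normexp with the background taken from undetected targets and an offset of 16. It gave 10 enriched and 16 depleted targets and no member past adjusted p 0.05. Without the arrays numbered 2 it gave 462 and 106, and 2 members were enriched (NICN1 3.47, adjusted p = 0.00999; PAICS 2.72, adjusted p = 0.00396), 1 was depleted (SFPQ -1.42, adjusted p = 0.0497) and 4 passed adjusted p 0.05 by limma, with PSPC1 at -1.05. Under it MATR3 and NONO missed adjusted p 0.05 (0.0514 and 0.102). The median of the other inverted-Alu mRNAs was 0.34 with the detection filter, which leaves fewer targets, and 0.22 under that last setting.

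With the replicate number as a block, 0 targets and 0 members were enriched and no member passed adjusted p 0.05 (NONO and MATR3 0.418 each by limma). Deviations of same-numbered arrays correlated at -0.46, -0.78 and -0.39, but the group means behind them include the arrays numbered 2, so whether the numbers pair the samples could not be judged.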
